A study of Mus musculus with 28 samples.

Results

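The cytosolic ribosomal proteins are the 84 genes whose names in both deposited tables are Rpl or Rps followed by a number (with an optional a, x, y or l), together with Rpsa, Rplp0, Rplp1 and Rplp2. Names of S6 kinases (Rps6k) and of pseudogene copies marked -ps were left out. Of the 12274 genes listed in both tables, 84 met this rule, 49 with names of the large subunit (Rpl) and 35 of the small subunit (Rps). All 84 have a gene in the GENCODE vM21 annotation of GRCm38, 80 as protein-coding genes and 4 (Rps12l1, Rps3a2, Rps3a3 and Rpl6l) as processed pseudogenes. By this annotation the label of the group can hold for 80 members, and the other 4 are copies that carry a gene-like name.

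The samples are of MC38, a mouse colon adenocarcinoma line, and RNA was read at the 3′ end of each transcript. One table holds 10 libraries in 5 groups of 2: untreated cells, cells given the cytokine TNF, cells given interferon gamma (IFNG), cells given TNF and IFNG together, and cells given the supernatant of a co-culture. The other table holds 9 libraries in 3 groups of 3. These are MC38 alone, MC38 of a co-culture with OT1 T cells given an isotype antibody, and MC38 of the same co-culture given anti-PD1 in its place. OT1 T cells are CD8 T cells with a transgenic receptor for an ovalbumin peptide, and PD1 is an inhibitory receptor on T cells. Cytokines and T cells were present for 6 hours, and no time is recorded for the supernatant. All groups are of the same cell line, grown in medium with serum, and no genetic change separates them. Nothing in the labels says whether the libraries of one group stem from separate cultures, and p-values measure only the spread among these libraries, which may be technical. The series has 28 samples, and 9 of OT1 T cells, alone or from either co-culture, were not analysed here.

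A ribosome joins a small subunit, which decodes the mRNA, and a large subunit, which forms the peptide bond. Each ribosomal protein is normally present in one copy per subunit, apart from the paired stalk proteins P1 and P2, so cells make these proteins in matched amounts. Their mRNAs are among the most abundant in growing cells. They typically start with a C followed by a run of pyrimidines (C or T), the 5′ TOP motif, through which the mTOR kinase controls their translation. Some ribosomal proteins also have roles away from the ribosome, as described beside each below.

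Runs of C or T were counted around the annotated starts, without asking that they begin at the start as a 5′ TOP motif does. Of the 84 members, 60 matched RefSeq promoter entries (GRCm38.p6), with 71 starts. An unbroken run of at least 7 C or T, on the strand of the gene and within 15 bases on either side of the start, was present at 34 of the 71 starts (47.9%). The same run was present at 6095 of all 32851 starts in the table (18.6%) and at 11 of 75 starts of mitochondrial ribosomal protein genes (14.7%). The windows below are 30 bases long and centred on the start, with the longest such run in capitals. The first 4 belong to genes that changed with TNF and IFNG, the next 3 to genes that were lower in co-culture, and the last 2 are genes lower in co-culture with no run of that length in the window.
Rpl35: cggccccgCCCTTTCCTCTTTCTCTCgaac
Rpl7a: aTTCCCTCTTCTTTCTTTCTCCagcagccg
Rps18: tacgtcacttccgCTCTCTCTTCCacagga
Rpl22l1: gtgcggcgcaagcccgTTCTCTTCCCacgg
Rps27: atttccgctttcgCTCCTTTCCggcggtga
Rps27l: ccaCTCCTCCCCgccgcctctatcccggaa
Rpl34: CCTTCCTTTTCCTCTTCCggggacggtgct
Rpl9: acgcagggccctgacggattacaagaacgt
Rps7: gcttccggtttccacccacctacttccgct
Where a gene has several starts, the start with the longest run is shown. The Rpl35 window is chr2:39005117-39005146 on the minus strand, and the Rpl9 window is chr5:65391417-65391446 on the minus strand. Among members lower in either co-culture comparison 11 of 22 starts had the run, and among the other members 23 of 49. A match describes letters in this window and is not a mapped start of these RNAs. The run can lie before the annotated start, as for Rps27l, and so outside the mRNA.

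The members made up 13.2% to 13.8% of the CPM (counts scaled to a common library total) in the in vitro libraries and 15.8% to 18.0% in the co-culture libraries. Of the 100 genes with the highest mean, 37 were members in vitro and 46 in co-culture. Because the assay reads about one tag per transcript end, CPM was not divided by transcript length, and levels between genes are compared on this scale. The deposited values are log2 CPM, quantile normalized within each table, so each library holds nearly the same set of values and a shift shared by most genes would not appear. This touches the highest genes most: Rps14, a small subunit protein, was the second highest gene of all 9 co-culture libraries and reads 13.30 in each, so it could not be tested there. All 84 members passed the filter on low values in vitro, and 83 were tested in co-culture.

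The highest members in vitro were Rps14 (mean 12.92 log2 CPM), Rplp1 (12.90), Rpl27a (12.60), Rplp2 (12.52) and Rps20 (12.30). In co-culture the order of these 5 was the same, from 13.30 for Rps14 to 12.60 for Rps20. The lowest members in vitro were Rpl29 (4.69), Rpl6l (6.24), Rps3a3 (6.32), Rps2 (6.34) and Rpl7l1 (6.47), and in co-culture Rpl29 (4.93), Rps27l (6.42), Rpl7l1 (6.45), Rps3a3 (6.58) and Rpl6l (6.74). Rps3a3 and Rpl6l are pseudogenes. Rps2 and Rpl29 are core ribosomal proteins whose values sit far below those of their neighbours in the ribosome.

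Reads from near-identical copies limit several members. Rps12, a protein of the small subunit head, is the clearest case: 97.6% of the CPM of Rps12 and its copies lay in the copies in vitro and 96.8% in co-culture. The longest transcripts of Rps12 and of Rps12l1 were identical over all 399 aligned bases, those of Rps12 and Rps12-ps3 over 494, and Rps12-ps9 differed from Rps12 at 2 of 399. The reading frame bases 63 to 92 are shown because they hold one of these differences, in capitals.
Rps12: gctgaagaccgccctcatccacgatggcct
Rps12l1: gctgaagaccgccctcatccacgatggcct
Rps12-ps3: gctgaagaccgccctcatccacgatggcct
Rps12-ps9: gctgaagaccgccctTatccacgatggcct
Rps12l1 read 11.26 and 10.69 in untreated cells but 8.28 and 10.05 with supernatant, while Rps12-ps3 read 11.36 and 11.06 with supernatant. In the second isotype library Rps12l1 read 9.31 and Rps12-ps9 9.30, against 11.22 for Rps12-ps3. The copies thus moved apart from one another within a group while Rps12 itself stayed between 6.72 and 7.67 in vitro. In all, 56 of 80 protein-coding members had a listed copy, and the copies held most of the CPM for 4 of them: Rps12, Rpl17, Rpl15 and Rpl23a.

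**Figure D1:**
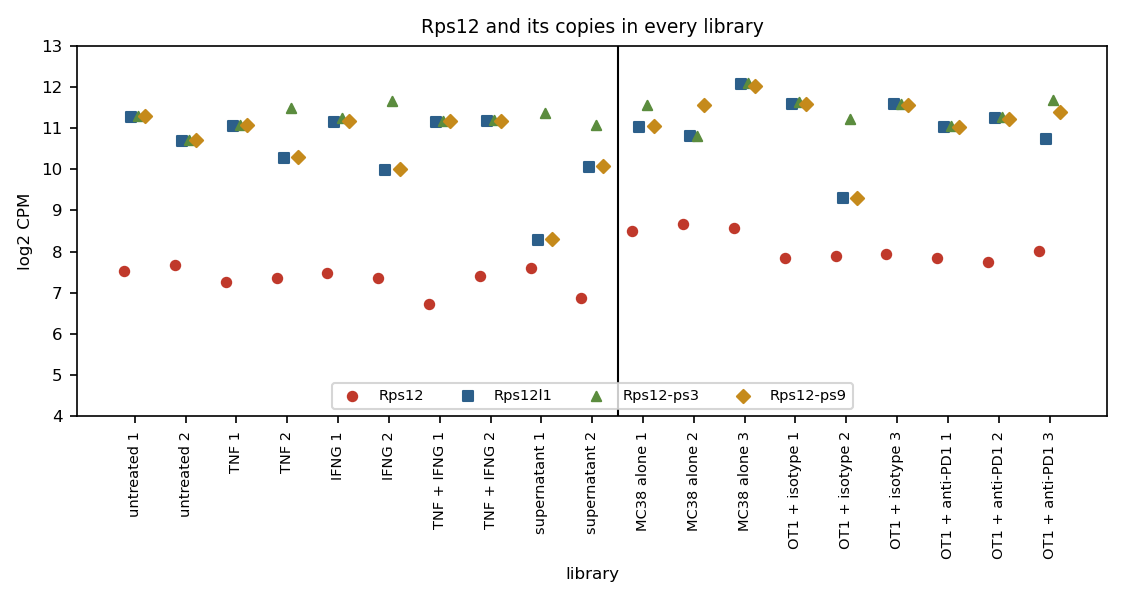
Log2 CPM of Rps12 and of 3 copies (vertical axis) in each of the 19 libraries (horizontal axis), with in vitro libraries left of the line and co-culture libraries right of it. Each symbol is one library; Rps12l1 and Rps12-ps9 drop to 8.28 and 8.31 in the first supernatant library and to 9.31 and 9.30 in the second isotype library, while Rps12 lies below its copies in every library.

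Single cytokines left the ribosomal protein genes with no call. With TNF, a cytokine that activates NF-kB, 0 of 84 members passed an adjusted p of 0.05 (limma, Benjamini-Hochberg over all genes), against 0.275% of all genes tested, and 2 members had an unadjusted p under 0.05 (2.38%, against 6.27% of all genes). With IFNG 0 of 84 passed, against 0.354% of all genes, and 5 had an unadjusted p under 0.05 (5.95%, against 10.7%). The median log2 fold of the members was -0.001 with TNF and -0.010 with IFNG, and that of all genes 0.013 and 0.045. The median 95% interval of a member spanned 0.365 to either side of its fold, with no correction for the number of genes tested. Larger changes can thus be missed at the threshold used. In data simulated for TNF and IFNG against untreated, the fit recovered 2.99% of log2 changes of 0.5 and 44.8% of changes of 1.

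Some members had large folds in these groups that did not pass. Rps2 read 7.07 and 7.29 in untreated cells, 6.75 and 6.14 with TNF, and 5.97 and 6.07 with IFNG. Its log2 fold was -0.74 with TNF (SE 0.58, adjusted p = 0.869) and -1.16 with IFNG (SE 0.58, adjusted p = 0.501). Rps24 read 10.11 and 10.40 untreated, 9.58 and 9.52 with TNF, and 9.36 and 9.42 with IFNG. For both genes all libraries of either cytokine lay below both untreated libraries. The share of all genes with this order was not counted. Rps27a, which is made as a fusion with ubiquitin, read 11.81 and 11.91 untreated and 10.95 and 11.14 with IFNG (log2 fold -0.82, adjusted p = 0.494). Rpl22l1 read 7.09 and 7.52 untreated and 6.73 and 6.84 with TNF (log2 fold -0.52, adjusted p = 0.743). The largest folds upward were small, at 0.23 for Rps9 with TNF and 0.38 for Rpl13a with IFNG, apart from 0.53 for the pseudogene Rps3a2 with IFNG.

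TNF and IFNG together moved 7 of 84 members past the threshold (8.33%), 2 higher and 5 lower, against 9.02% of all genes tested (4.77% higher, 4.25% lower). The members' share is close to that of all genes, and their median log2 fold was -0.045, against 0.017 for all genes. Of the 84, 24 had an unadjusted p under 0.05 (28.6%), against 31.1% of all genes.

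**Figure D2:**
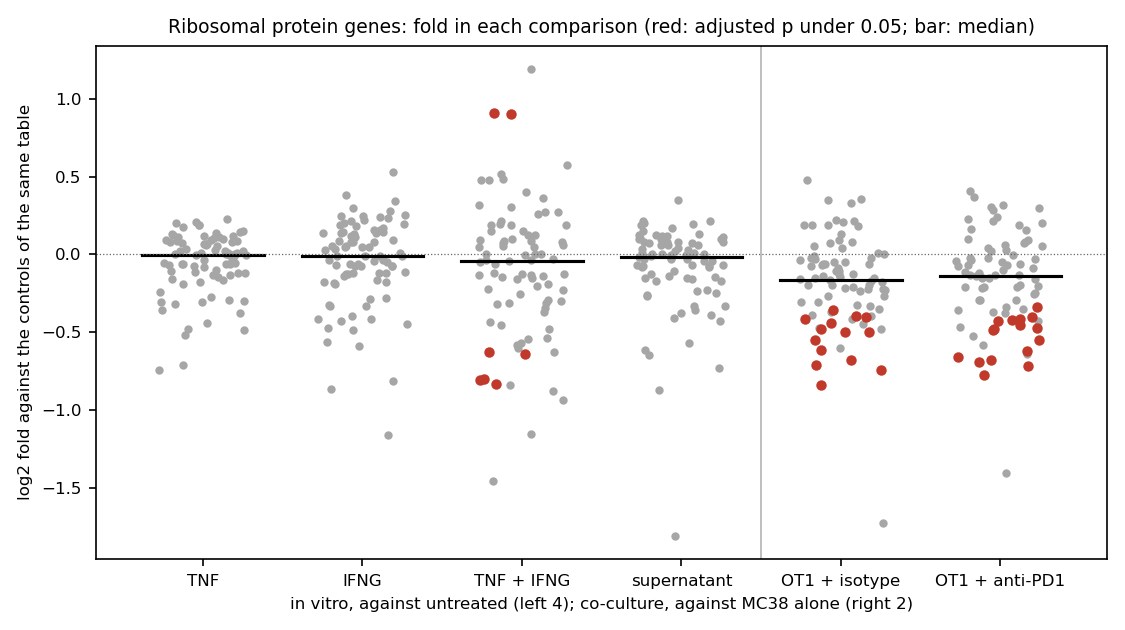
Log2 fold of each ribosomal protein gene (points, 84 in vitro and 83 in co-culture) against the controls of its table, with the median as a bar and genes past an adjusted p of 0.05 in red. Red points lie on both sides of 0 with TNF and IFNG (2 higher, 5 lower) and only below 0 in co-culture (14 and 16), where the medians are -0.161 and -0.138.

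The 2 genes that rose were Rpl35 and Rps20. Rpl35, a large subunit protein near the exit tunnel (chr2:39001580-39005624, minus strand), read 9.99 and 10.04 in untreated cells and 10.69 and 11.14 with both cytokines. The groups did not overlap, as was so for 100% of all genes past the threshold and 59% of all genes tested. The log2 fold was 0.90 (SE 0.20, adjusted p = 0.0332), or 1.87-fold. Rps20, of the small subunit head, read 11.99 and 12.05 untreated and 12.58 and 13.28 with both cytokines, a log2 fold of 0.91 (SE 0.23, adjusted p = 0.0457). Its 2 treated libraries differed by more than the lower of them differed from the controls. In vitro the 20 highest ranks held 20 distinct values over all libraries, so a value there reflects a gene's rank in its library. Neither gene passed with TNF or IFNG alone: Rpl35 read 10.01 and 10.26 with TNF and 10.25 and 10.27 with IFNG.

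Of the 5 that fell, 3 are large subunit proteins and 2 small. Rpl22l1 is a close relative of Rpl22 that can take its place in the large subunit. It read 7.09 and 7.52 untreated and 6.35 and 6.60 with both cytokines (log2 fold -0.83, SE 0.20, adjusted p = 0.0413). Rpl32 read 10.47 and 10.66 untreated and 9.68 and 9.84 with both (log2 fold -0.81, SE 0.18, adjusted p = 0.0377). Rpl7a read 9.76 and 9.91 untreated and 8.95 and 9.13 with both (log2 fold -0.80, SE 0.16, adjusted p = 0.0273). For Rpl32 and Rpl7a both libraries of the combination lay below all other in vitro libraries. For Rpl22l1 the second supernatant library, at 6.46, fell between the 2 of the combination. How many of all genes show the order of Rpl32 and Rpl7a was not counted.

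Rps21 read 10.99 and 11.17 untreated and 10.44 in both libraries given both cytokines (log2 fold -0.64, SE 0.15, adjusted p = 0.038). Rps18 read 10.66 and 10.73 untreated and 10.12 and 10.02 with both (log2 fold -0.62, SE 0.13, adjusted p = 0.0321). For Rps18 the single cytokines gave values between these, 10.62 and 10.42 with TNF and 10.34 and 10.39 with IFNG. A departure from the sum of the single effects was tested as an interaction, and 0 of 84 members passed, against 0.0157% of all genes, with 1 member at an unadjusted p under 0.05 (1.19%, against 3.93%). The interaction was 0.53 for Rpl35 (SE 0.28, adjusted p = 0.962) and -0.11 for Rps18 (SE 0.19, adjusted p = 0.975).

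These 7 calls rest on few libraries. The steps between low values of the second library of both cytokines correspond to about 3420000 reads, the fewest of the 19 libraries. The other in vitro libraries stood at 6560000 to 11300000. With one library left out the count was 0 without either untreated library, either IFNG library or the second library of both cytokines. It was 2 without either TNF library and 15 without either supernatant library. Calls over all genes moved too, from 1147 to 121 and 88 without an untreated library and to 263 and 271 without an IFNG library. They were 314 without the second library of both cytokines, 545 and 551 without a TNF library, and 2156 and 2165 without a supernatant library. Rpl7a was no longer past the threshold once its copies, 17.6% of the family's CPM, were added to it (adjusted p = 0.148), and the other 6 kept their calls.

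**Figure D3:**
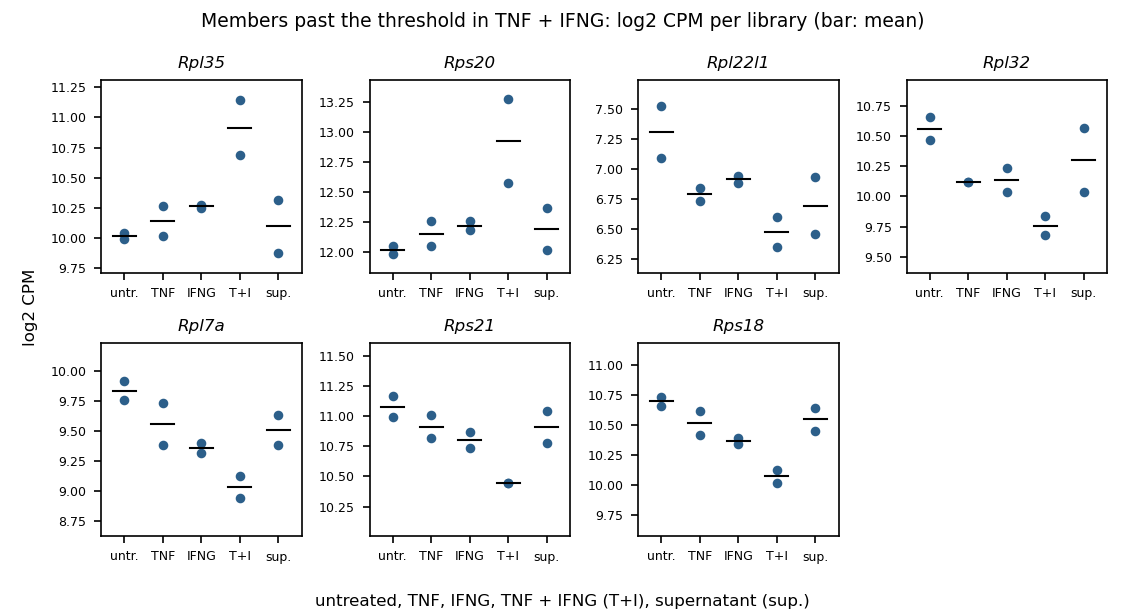
Log2 CPM (vertical axis) of the 7 members past the threshold with TNF and IFNG, in the 5 in vitro groups of 2 libraries (points; bars are means). Rpl35 and Rps20 are highest with both cytokines and the other 5 are lowest there; the 2 points of the combination differ by 0.70 for Rps20 and coincide for Rps21.

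The supernatant of a co-culture gave no call among the members: 0 of 84 passed, against 0.448% of all genes, and 3 had an unadjusted p under 0.05 (3.57%, against 5.13%). The median log2 fold was -0.016. The lowest fold was that of the pseudogene Rps12l1 (-1.81, SE 0.57, adjusted p = 0.653), whose reads are shared with its copies. Rpl17, a large subunit protein, had the largest fold upward, from 7.05 and 6.79 to 7.37 and 7.17 (log2 fold 0.35, adjusted p = 0.864). Between supernatant and the 2 cytokines together 0 of 84 members passed, against 0.236% of all genes, with 14 at an unadjusted p under 0.05 (16.7%, against 16.8%). In that comparison Rpl35 was at -0.82 (adjusted p = 0.138) and Rpl32 at 0.55 (adjusted p = 0.223).

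The 2 libraries within a group differed most for the combination and for supernatant. The median absolute difference of a member between them was 0.234 and 0.239, against 0.0824 in untreated cells. Over all genes it was 0.371 and 0.356, against 0.212, so the same order held there. A set of members stood low in one library of each group. Rpl39, a small protein of the exit tunnel, read 7.88 and 8.94 with both cytokines, 9.55 and 8.11 with supernatant, and 9.55 and 9.57 untreated. Rps2, which lies at the mRNA entry of the small subunit, read 4.90 and 6.56 with both cytokines and 7.10 and 5.52 with supernatant. Rpl30 read 7.57 and 8.72 with both and 9.05 and 8.07 with supernatant, against 8.90 and 9.07 untreated. Rps24 and Rps27a followed the same order, at 8.84 and 9.80 and at 10.55 and 11.42 with both cytokines, and at 10.31 and 9.06 and at 11.87 and 10.57 with supernatant. The first library of the combination and the second of supernatant were thus the low ones for these 5 genes, and none of them passed with both cytokines (adjusted p from 0.123 for Rpl39 to 0.177 for Rpl30). Across the 84 members the difference between the 2 libraries of the combination correlated with that of supernatant at r = -0.615 (Spearman rho -0.522). Among the other pairs of groups r ranged from -0.463 to 0.325. Over all genes tested r for the combination and supernatant was -0.287. These values are a description across genes, which are not independent replicates. The 5 genes were chosen after their values were seen.

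**Figure D4:**
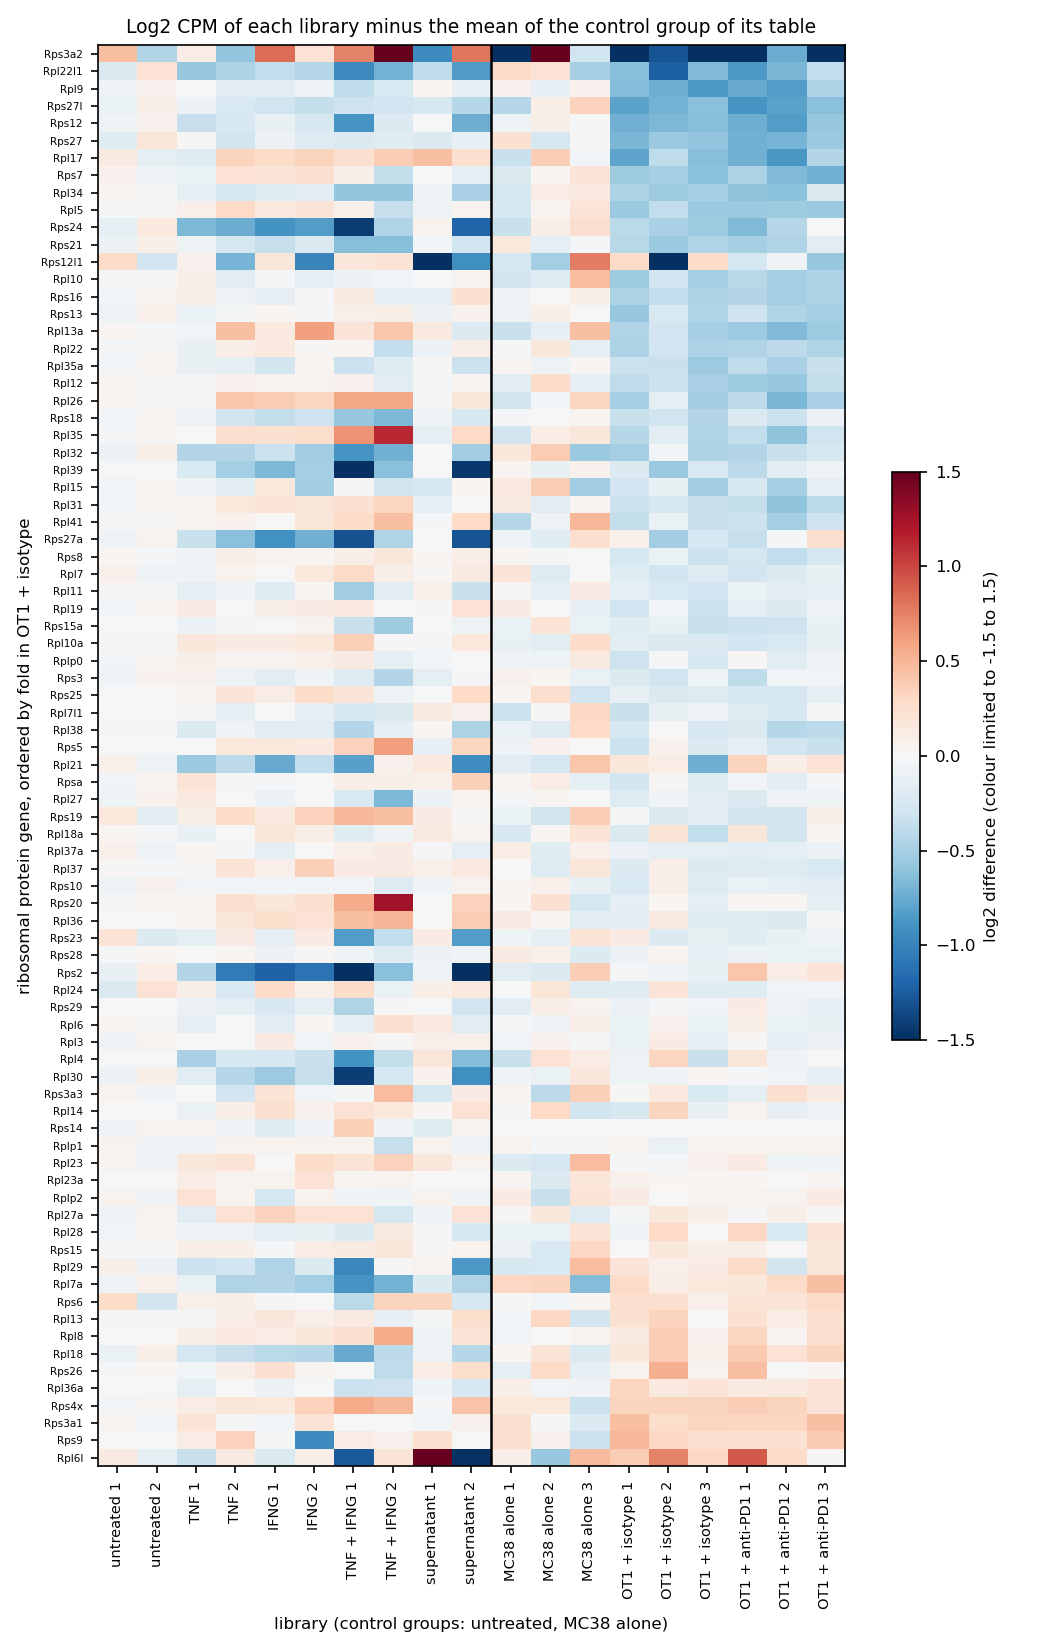
Log2 CPM of 82 ribosomal protein genes (rows) in every library (columns) minus the mean of the untreated libraries (left of the line) or of MC38 alone (right of it), with blue lower and red higher and the colour limited at 1.5. Rps2, Rpl39, Rpl30, Rps24 and Rps27a are blue in the first library of TNF and IFNG and the second of supernatant, and most of the upper rows of the co-culture block (not Rps12l1) are blue in all 6 libraries with OT1 T cells.

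Before the co-culture results, 3 libraries need a remark. The third library of MC38 alone held a summed level of T cell markers of 51.7 CPM, against 3.54 and 4.38 in the other 2 and 39.5 to 52.5 in the 6 co-culture libraries. It also correlated least with the other libraries (r from 0.895 to 0.922), and its steps between low values correspond to about 3800000 reads, the fewest of the table. Labels of the third library given anti-PD1 disagree, since its title says untreated and its description names the T cells and PD1. It was placed by the description. For the second isotype library the description reads OT2. Of 16 T cell markers 12 were listed in the co-culture table, 5 of them higher with isotype antibody and 3 with anti-PD1, whereas none of 8 B cell and myeloid markers was listed. Of 11 epithelial markers 5 were listed, with sums of 1.61 to 33.3 CPM, and mesenchymal markers such as Vim summed to 1288 to 1759 CPM. The defining epithelial markers of a colon carcinoma were thus near 0 in these MC38 libraries.

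In co-culture with OT1 T cells the ribosomal protein genes that changed all fell. With isotype antibody 14 of 83 members were lower (16.9%) and 0 higher, against 13.9% of all genes in either direction, 6.22% lower and 7.64% higher. With anti-PD1, 16 of 83 were lower (19.3%) and 0 higher, against 16.1% of all genes in either direction, 7.71% lower and 8.42% higher. The median member had a log2 fold of -0.161 with isotype and -0.138 with anti-PD1, against -0.056 and -0.059 for all genes. Of the 83 folds, 64 were below 0 with isotype and 61 with anti-PD1. Over all 12707 genes tested, 6975 folds were below 0 with isotype and 6988 with anti-PD1. The share of CPM taken by the members was 17.6% ± 0.377 (SD, n = 3) in MC38 alone, 16.2% ± 0.39 (SD, n = 3) with isotype and 16.2% ± 0.323 (SD, n = 3) with anti-PD1, and each co-culture library lay below each library of MC38 alone. Both comparisons share the 3 libraries of MC38 alone, so their values are not independent.

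The T cell markers moved with these groups, and the share of mitochondrial transcripts too, from 1.58% to 1.90% of CPM in the libraries of MC38 alone to 0.768% to 0.975% with isotype and 0.900% to 1.27% with anti-PD1. Their part in the result was not tested. OT1 T cells of the co-cultures are separate samples of the series, so these libraries need not be of whole co-cultures. In such bulk samples fewer cells of a type and less RNA per cell cannot be told apart. Without the third library of MC38 alone, which carries T cell markers, 14 members were lower with isotype (11 of them among the first 14). With anti-PD1, 18 were lower and 1 higher (14 among the first 16). Over all genes the calls in either direction went from 1761 to 2218 with isotype and from 2050 to 2565 with anti-PD1.

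Small subunit genes made up 8 of the 14 and 8 of the 16, which is 8 of 34 tested (23.5%) in each. Of the large subunit genes 6 of 49 were lower with isotype (12.2%) and 8 of 49 with anti-PD1 (16.3%). Of all genes 6.22% and 7.71% were lower. A difference between the subunits was not tested. Rps27, a zinc finger protein of the small subunit (chr3:90212522-90213651, minus strand), read 9.99, 9.52 and 9.79 in MC38 alone, 9.08, 9.21 and 9.17 with isotype, and 9.05, 9.07 and 9.20 with anti-PD1. All 6 co-culture libraries lay below all 3 controls, with log2 folds of -0.61 (SE 0.13, adjusted p = 0.00945) and -0.66 (SE 0.13, adjusted p = 0.00599). Its relative Rps27l, known as a target of p53, read 6.48, 6.99 and 7.26 in MC38 alone, 6.11, 6.20 and 6.28 with isotype, and 6.02, 6.11 and 6.29 with anti-PD1. Its log2 folds were -0.71 (SE 0.18, adjusted p = 0.0249) and -0.77 (SE 0.18, adjusted p = 0.0163). Rps27l thus fell beside Rps27.

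Rps7, a small subunit protein that can bind Mdm2, read 10.69, 10.94 and 11.10 in MC38 alone, 10.38, 10.41 and 10.30 with isotype, and 10.44, 10.25 and 10.18 with anti-PD1. The log2 folds were -0.55 (SE 0.12, adjusted p = 0.0161) and -0.62 (SE 0.12, adjusted p = 0.00827). Rps16 read 11.12, 11.20 and 11.29 in MC38 alone, 10.73, 10.84 and 10.72 with isotype, and 10.77, 10.69 and 10.73 with anti-PD1. Its folds were -0.44 (adjusted p = 0.0132) and -0.47 (adjusted p = 0.00844). Both genes had no overlap between MC38 alone and either co-culture. The same held for 99.9% of all genes past the threshold. Of all genes tested, 31.9% with isotype and 33.1% with anti-PD1 had no overlap. Rps12 read 8.50, 8.66 and 8.56 in MC38 alone, 7.85, 7.90 and 7.94 with isotype, and 7.84, 7.74 and 8.00 with anti-PD1, with folds of -0.68 (adjusted p = 0.0014) and -0.71 (adjusted p = 0.000988). With its copies added the Rps12 family gave -0.36 (adjusted p = 0.545) and -0.29 (adjusted p = 0.617), so its call holds for the reads assigned to Rps12 itself.

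Among large subunit genes Rpl9 (chr5:65388364-65391444, minus strand), had the smallest adjusted p. It read 10.26, 10.08 and 10.26 in MC38 alone, 9.55, 9.48 and 9.35 with isotype, and 9.44, 9.37 and 9.73 with anti-PD1. Its log2 folds were -0.74 (SE 0.12, adjusted p = 0.00246) and -0.69 (SE 0.12, adjusted p = 0.00371), and with its copies added -0.79 (adjusted p = 0.00119) and -0.73 (adjusted p = 0.00197). Rpl22 read 10.96, 11.14 and 10.82 in MC38 alone, 10.51, 10.69 and 10.51 with isotype, and 10.53, 10.58 and 10.53 with anti-PD1, a log2 fold of -0.40 (adjusted p = 0.038) and -0.43 (adjusted p = 0.0269). Its relative Rpl22l1 read 7.59, 7.52 and 6.81 in MC38 alone, 6.67, 6.08 and 6.65 with isotype, and 6.45, 6.62 and 6.94 with anti-PD1. Rpl22l1 fell with isotype (log2 fold -0.84, SE 0.23, adjusted p = 0.0387) and gave -0.64 with anti-PD1 (SE 0.23, adjusted p = 0.0918). Without the third library of MC38 alone, the lowest of its controls, Rpl22l1 passed in both comparisons.

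Rpl5 and Rpl11 form, with 5S rRNA, a particle that can bind Mdm2 and so stabilise p53. Rpl5 read 12.38, 12.67 and 12.82 in MC38 alone, 12.07, 12.25 and 12.07 with isotype, and 12.07, 12.09 and 12.07 with anti-PD1. The log2 folds were -0.50 (SE 0.13, adjusted p = 0.0314) and -0.55 (SE 0.13, adjusted p = 0.0187). Without the third library of MC38 alone, the highest of its controls, Rpl5 was at -0.40 with isotype (adjusted p = 0.0537). Rpl11 read 11.02, 10.87 and 11.12 in MC38 alone, 10.87, 10.77 and 10.71 with isotype, and 10.90, 10.84 and 10.87 with anti-PD1, with folds of -0.22 (adjusted p = 0.197) and -0.13 (adjusted p = 0.429). Rpl5 and Rpl11 were not tested against each other.

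The remaining calls were smaller or closer to the threshold. With isotype Rpl34 (-0.50), Rps21 (-0.48), Rps13 (-0.41), Rpl35a (-0.40) and Rps18 (-0.36) passed, and those with anti-PD1 included Rpl17 (-0.68), Rpl12 (-0.49), Rpl34 (-0.48), Rpl31 (-0.46), Rps13 (-0.42) and Rpl35a (-0.40). For Rpl34 the groups overlapped with anti-PD1, at 10.02, 10.01 and 10.41 against 10.38, 10.73 and 10.77 in MC38 alone. Rpl17 has 78.7% of its family's CPM in copies and was at -0.55 with them added (adjusted p = 0.0652). Besides Rps12 and Rpl17, adding copies to the parent gene ended the calls of Rpl35a in both comparisons, of Rps13 and Rps18 with isotype, and of Rps16 with anti-PD1. The names Rpl22l1, Rps18 and Rps21 were lower with TNF and IFNG and also with isotype, which is 3 of the 5 lower there and 3 of the 14 here. None of the 3 passed with anti-PD1, and the share of all genes lower in both comparisons was not counted. With the replicate number as a block Rpl22l1 and Rps18 lost both calls, and Rps21 the one with both cytokines.

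**Figure D5:**
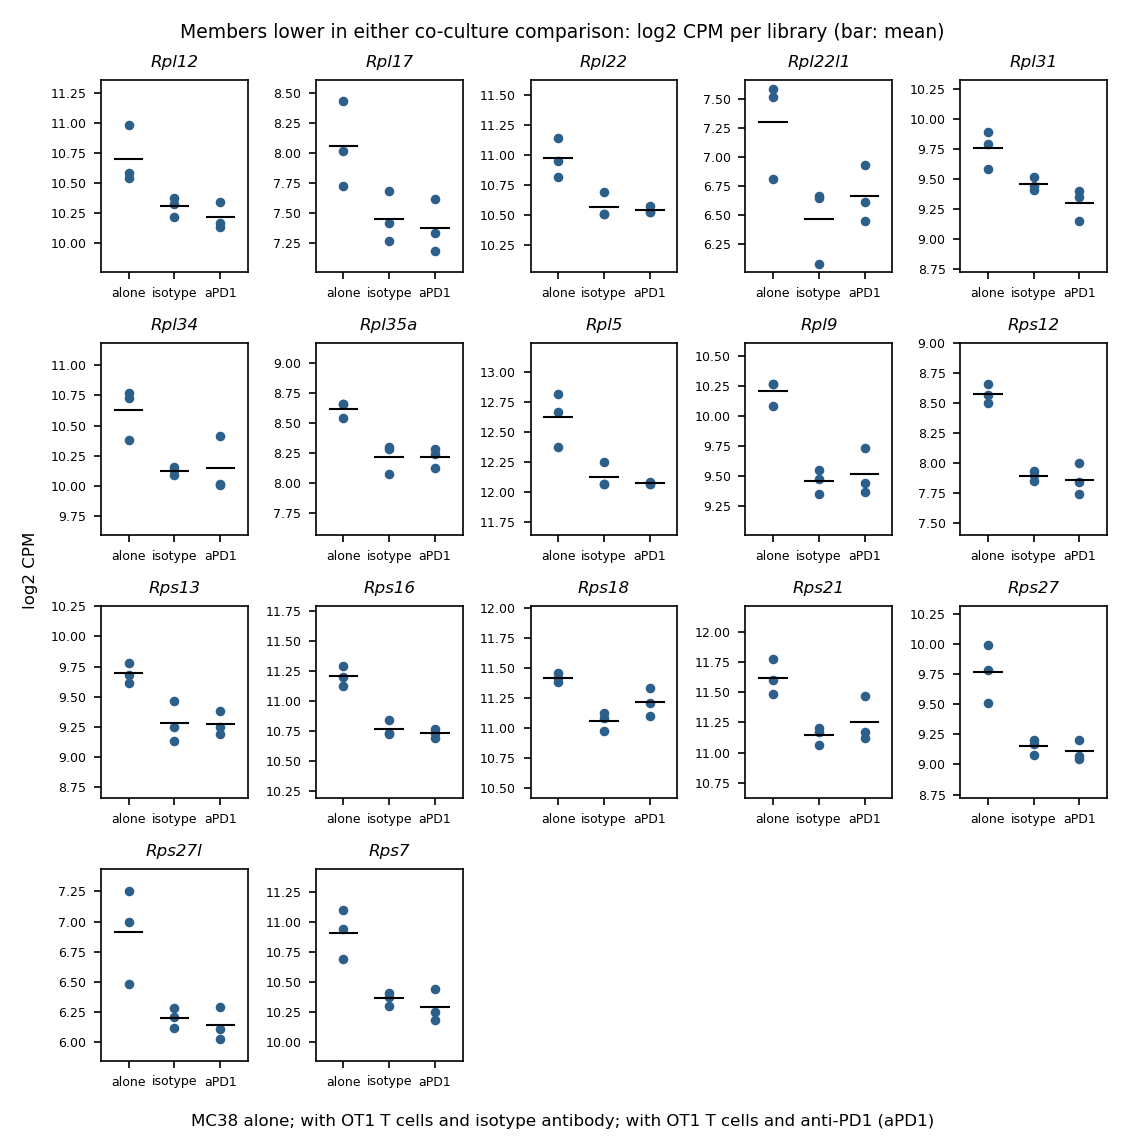
Log2 CPM (vertical axis) of 17 of the 19 members past the threshold in either co-culture comparison, in MC38 alone and in co-culture with isotype antibody or anti-PD1 (3 libraries each; points are libraries, bars are means). In all 17 panels the means of both co-cultures lie below the mean of MC38 alone; Rps27l, for example, is at 6.48 to 7.26 alone and 6.02 to 6.29 with anti-PD1.

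The counts depend on which libraries enter the fit. With isotype the count of 14 was 3 without the first or the third isotype library, 7 without the second library of MC38 alone, 8 without the first anti-PD1 library and 7 without the second. With anti-PD1 the count of 16 was 7 without the first anti-PD1 library, 5 without the second and 10 without the third, and 10 without the second library of MC38 alone. In the same order all genes gave 1075, 1008, 1495, 1476 and 1471 calls with isotype, against 1761 in the reported fit. With anti-PD1 all genes gave 1323, 1227, 1231 and 1712, against 2050. The third anti-PD1 library is the one whose labels disagree, and its removal kept 9 of the 16 calls.

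No member rose past the threshold in co-culture. The largest upward folds with isotype were those of the pseudogene Rpl6l (0.48, adjusted p = 0.299), Rps9 (0.35, adjusted p = 0.161) and Rps3a1 (0.35, adjusted p = 0.111). With anti-PD1 they were Rpl6l (0.41, adjusted p = 0.367), Rps3a1 (0.37, adjusted p = 0.0842) and Rpl18 (0.32, adjusted p = 0.127). Rps3a1 read 12.15, 11.91 and 11.72 in MC38 alone, 12.38, 12.19 and 12.25 with isotype, and 12.25, 12.25 and 12.38 with anti-PD1, so all 6 co-culture libraries lay above the controls. Groups did not overlap for 31.9% of all genes tested with isotype and 33.1% with anti-PD1.

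Between the 2 antibodies 0 of 83 members passed, 0 had an unadjusted p under 0.05, and 0% of all genes passed (347 at an unadjusted p under 0.05). The median log2 fold of anti-PD1 over isotype was -0.011 and the median 95% interval reached 0.29 to either side, so 81 of 83 intervals lay within 1 of 0. This bounds the difference and does not show that the antibodies act alike. The largest upward folds were 0.37 for Rpl21 and 0.32 for Rps3a2, and the lowest fold was -0.19 for Rpl38.

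The P stalk proteins recruit the elongation factors. Rplp0 read 11.18 and 11.26 in untreated cells and 11.34 and 11.09 with both cytokines, and 11.47, 11.46 and 11.67 in MC38 alone against 11.22, 11.50 and 11.29 with isotype. Rplp1 and Rplp2 ranged from 12.26 to 12.97 in vitro and from 12.49 to 13.03 in co-culture. None of the 3 passed in any comparison. Among the members with roles beyond the ribosome, Rpl13a, which joins the interferon gamma activated inhibitor of translation (GAIT), read 10.91 and 10.85 untreated, 11.03 and 11.50 with IFNG, and 11.08 and 11.29 with both cytokines (log2 fold 0.30, adjusted p = 0.382). In co-culture Rpl13a read 11.41, 11.62 and 12.19 alone and 11.20, 11.08 and 11.21 with anti-PD1 (log2 fold -0.58, adjusted p = 0.0513). Rps3, which can partner the p65 subunit of NF-kB, read 11.09 and 11.22 untreated and 10.97 and 10.72 with both cytokines (log2 fold -0.31, adjusted p = 0.172).

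Rps6, the target of the S6 kinases, read 10.18 and 9.63 untreated and 9.50 and 10.24 with both cytokines, and 10.35, 10.30 and 10.37 in MC38 alone against 10.58, 10.58 and 10.42 with isotype (log2 fold 0.19, adjusted p = 0.227). Rps4x, the X-linked small subunit protein, read 11.67 and 11.74 untreated and 12.26 and 12.19 with both cytokines (log2 fold 0.52, adjusted p = 0.0823). Rpsa, the laminin receptor precursor, stayed between 10.69 and 11.09 in vitro, and 48.9% of its family's CPM lay in copies. Rpl3, Rpl10 and Rpl7 did not pass in any comparison, nor did Rpl7l1, a relative of Rpl7. The relatives Rpl39l, Rpl3l and Rpl10l, known chiefly from testis or muscle, were not analysed here.

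Other genes of the translation machinery were read from lists, and their counts stand against 9.02% of all genes past the threshold with both cytokines, 13.9% with isotype and 16.1% with anti-PD1. Of 6 elongation factors 0 passed in any comparison. Of 36 initiation factors 1 was higher and 2 lower with both cytokines, 2 higher and 4 lower with isotype, and 3 higher and 2 lower with anti-PD1. These are 8.33%, 16.7% and 13.9% of the list, close to the shares of all genes. Eif4a2, an RNA helicase, was at -0.83 with isotype (adjusted p = 0.00585) and -0.62 with anti-PD1 (adjusted p = 0.0234). Of 20 listed mRNAs with a 5′ TOP motif outside the ribosomal proteins, Naca, of the nascent chain complex, was the single one to pass, at -0.40 with isotype and -0.52 with anti-PD1. Of 5 listed ribosomal proteins outside the naming rule, such as Fau and Rack1, 0 passed.

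Of 56 genes of ribosome biogenesis, 9 were higher (16.1%, against 7.64% of all genes) and 1 lower with isotype, and 6 higher (10.7%, against 8.42%) and 1 lower with anti-PD1. The other 46 and 49 did not pass. Rrp12, needed for export of the subunits, was at 1.47 with isotype (adjusted p = 0.0243), and Wdr43, of the small subunit processome, was at 0.61 (adjusted p = 0.00541). Polr1c, a subunit of RNA polymerases I and III, was the lower one (-0.50 and -0.56). With both cytokines 7 of the 56 were higher (12.5%, against 4.77% of all genes) and 5 lower (8.93%, against 4.25%). The median of this list was 0.137 with both cytokines, 0.198 with isotype and 0.139 with anti-PD1, against 0.017, -0.056 and -0.059 for all genes.

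Of 13 genes around mTOR and S6 kinase 1 was higher and 3 lower with both cytokines, 1 lower with isotype and 3 lower with anti-PD1. These are 30.8%, 7.69% and 23.1% of the list, against 9.02%, 13.9% and 16.1% of all genes. Ddit4, which inhibits mTOR complex 1, fell in all 3, with log2 folds of -1.68, -2.58 and -2.30 (adjusted p = 0.00958, 2.8e-05 and 6.51e-05). Of 4 genes tying the 5S particle to p53, Cdkn1a, the cell cycle inhibitor, and Mdm2, the ligase of p53, rose in the same 3 comparisons. Cdkn1a was at 1.05, 1.04 and 1.18 and Mdm2 at 0.96, 1.03 and 1.17, while Rps27l, also a p53 target, read -0.30, -0.71 and -0.77. Of 81 mitochondrial ribosomal protein genes 4 were higher and 2 lower with both cytokines, and 1 higher and 8 lower in each co-culture comparison, with medians of 0.117, -0.094 and -0.055. In either direction these are 7.41%, 11.1% and 11.1% of the list, below the shares of all genes. The 8 lower in co-culture are 9.88%, against 6.22% and 7.71% of all genes. The pseudogene copies of ribosomal proteins marked -ps had 10 of 161 lower (6.21%) and 0 higher in each co-culture comparison, and 6.22% and 7.71% of all genes were lower there.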

How the data were processed

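RNA of MC38 was made into QuantSeq 3′ mRNA libraries, per the labels' protocols. Per the submitters' processing notes the tools were limma, featureCounts of Subread, HISAT2, cutadapt 1.7 and FastQC, and the builds mm10 and GRCm38. Whether strand was used is not stated in these notes. The authors deposited log2 CPM values, a unit read from the values, whose antilogs add up to between 993229 and 998505 per library. Libraries of a table share their maximum, as quantile normalization leaves them, and the tables were normalized separately, so tests stayed within a table. Read totals were not used here, and steps between low values correspond to 3420000 to 11300000 reads.

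All groups of a table were fitted with limma 3.58.1 (R 4.3.3) with an intensity trend. Genes needed a log2 value of at least 0 in 2 (in vitro) or 3 (co-culture) libraries, which left 12720 of 12721 and 12707 of 12948. Adjusted p-values are Benjamini-Hochberg over all genes tested, with a threshold of 0.05, and the fit was tested on simulated data. There 9% of the calls were false in the in vitro layout and 1.39% in the co-culture layout. Folds are differences of log2 CPM. Members named are those past the threshold (at most 8 per direction, others briefly), the 3 largest folds where fewer than 3 passed, members with known extra roles, and the highest and lowest levels. The members and lists were chosen with earlier results of these data known. Same-numbered libraries of different groups did not deviate together (r from -0.287 to 0.0941 in vitro and -0.0541 to 0.109 in co-culture), so numbers were not used as pairs. A few items are not reported here by name, and counts include them.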

Additional observations from a re-analysis of the deposited data

How the results depend on the processing

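The counts of members past the threshold were recomputed without the filter on low values, with a stricter one, with library weights, fitting only the groups compared, without the trend, after cyclic loess, after centring on genes of like level, with the replicate number as a block, and without each library. A pseudocount could not be varied because the deposited values are already logs. Without the intensity trend the count with both cytokines went from 7 to 0, with isotype from 14 to 5 and with anti-PD1 from 16 to 7. With only the compared groups these were 0, 5 and 10, and IFNG alone gave 4, all lower. Over all genes those fits gave 143, 1182 and 1282 calls, and 488 with IFNG, against 45 in the reported fit. Without the trend all genes gave 467, 1487 and 1714, against 1147, 1761 and 2050 in the reported fit. With the replicate block the members gave 3, 10 and 12, and all genes 594, 1497 and 1707. The block changed no other member count by over 1.5 times. Without one library each, the counts ranged from 0 to 15 with both cytokines, from 3 to 14 with isotype, from 5 to 19 with anti-PD1 and from 0 to 4 for supernatant against both cytokines. Over all genes those ranges were 88 to 2165, 1008 to 2218, 1227 to 2565 and 12 to 486. The count of members in the other 5 comparisons stayed at 0 in each of these. The cause of these shifts was not tested. The next 2 settings were chosen after seeing the data. With copies added to their parent gene the counts were 6, 12 and 14, with 6, 10 and 12 of the first calls kept. Without the third library of MC38 alone they were 14 and 19 in co-culture. Of 4129 values of single named members under an alternative, 3805 kept direction and side of the threshold, and 144 lost and 22 gained a call with the same direction. The other 158, of members past the threshold under neither setting, did not keep their sign: 142 changed it and 16 went to or from 0. Depth and 2 or 3 libraries a group limit what can be seen for low members such as Rpl29.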
